A study of Caenorhabditis elegans with 2 samples.

Results

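The autophagy genes of Caenorhabditis elegans were examined for binding of the nuclear hormone receptor NHR-20. Members were the protein-coding genes with symbols starting with atg-, lgg- or epg- in the WBcel235 annotation, together with unc-51, bec-1, vps-34, sqst-1, sepa-1 and rab-7. They numbered 29 of the 19973 protein-coding genes on the nuclear chromosomes. The data are chromatin immunoprecipitation followed by sequencing from 1 group of 2 biological replicates, with no second group to compare. Each replicate was whole hermaphrodite L1 larvae of strain OP515, genotype unc-119(tm4063) III with the transgene wgIs515, which adds a C-terminal GFP-FLAG tag to NHR-20. Larvae were collected 6 hours after synchronization by starvation at the L1 stage following bleaching, and the protocol describes precipitation with an antibody to GFP, although the antibody field names NHR-20. Both replicates came from this 1 transgenic line and were called against the same control alignment. Untagged larvae were not analysed here, and enriched regions that form without the tag cannot be told apart from those of NHR-20.

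Autophagy encloses cytoplasm in a double membrane, the autophagosome, and delivers it to the lysosome for breakdown. A kinase complex starts the process, a lipid kinase complex marks the site, and transfer proteins feed membrane to it. Ubiquitin-like proteins are then coupled, those of the ATG8 family to the growing membrane and ATG12 to ATG5. Receptors bring in cargo, and tethers and small GTPases lead to fusion with the lysosome. In starved L1 larvae of the worm, autophagy is known to be needed for survival.

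The unit of measurement was the summit, the point of highest enrichment in a region called by the authors. Regions were called against the control, and each carries a signal value from the authors' caller, whose scale is not given in the sources used here. A rank of 1 is the strongest region of a list. The thresholded list, kept by the authors after their analysis of irreproducible discovery rate, held 6423 summits with signals from 85.96 to 2711 and a median of 169.5. The promoter window of a gene covered 1000 bp before and 300 bp after each of its annotated starts, and a gene-body summit lay inside the gene but outside its own windows. Candidate lists of 30000 regions each were available for the pooled replicates and for each replicate. The thresholded list was the same as the 6423 strongest regions of the pooled candidate list, so membership followed the pooled signal. Depth is unknown, signals were compared only within a list, and ranks were compared between lists. In whole larvae, strong binding in few cells and weak binding in many cannot be told apart.

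The sequences around the 5 strongest member summits are shown because they hold the highest signals and letters that recur at several of these genes. Each is the 201 bases centred on the summit in ce11 (RefSeq WBcel235 genome), read 5′ to 3′ on the strand of the gene. Capitals mark matches on either strand to 3 motifs. They are the repeat GAGAGA, the palindromic E-box CACGTG and a longer form, TCACNTGA, which contains the E-box when N is G. The windows are, in the order shown, an intron of epg-9 (chrIV:2602071-2602271, plus strand), the promoters of lgg-2 (chrIV:10936099-10936299, minus strand), epg-7 (chrX:7334450-7334650, plus strand) and lgg-1 (chrII:6348507-6348707, minus strand), and the DNA upstream of rab-7 (chrII:11967626-11967826, minus strand). None overlapped an annotated coding exon or UTR.
epg-9: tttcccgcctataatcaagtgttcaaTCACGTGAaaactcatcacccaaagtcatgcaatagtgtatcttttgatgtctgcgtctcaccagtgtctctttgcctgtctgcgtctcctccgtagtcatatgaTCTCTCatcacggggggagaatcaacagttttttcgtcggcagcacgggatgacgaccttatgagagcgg
lgg-2: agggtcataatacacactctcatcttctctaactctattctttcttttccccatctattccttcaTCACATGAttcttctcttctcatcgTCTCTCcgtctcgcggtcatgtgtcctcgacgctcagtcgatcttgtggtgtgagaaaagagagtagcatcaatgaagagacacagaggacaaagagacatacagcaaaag
epg-7: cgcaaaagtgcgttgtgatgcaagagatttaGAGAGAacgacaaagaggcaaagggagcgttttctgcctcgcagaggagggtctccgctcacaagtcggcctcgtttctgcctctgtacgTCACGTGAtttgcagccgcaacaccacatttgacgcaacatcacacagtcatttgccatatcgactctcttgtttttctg
lgg-1: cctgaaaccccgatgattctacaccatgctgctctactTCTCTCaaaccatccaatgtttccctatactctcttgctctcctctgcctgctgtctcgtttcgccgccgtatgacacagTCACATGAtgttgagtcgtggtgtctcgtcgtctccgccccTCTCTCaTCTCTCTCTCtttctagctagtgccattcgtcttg
rab-7: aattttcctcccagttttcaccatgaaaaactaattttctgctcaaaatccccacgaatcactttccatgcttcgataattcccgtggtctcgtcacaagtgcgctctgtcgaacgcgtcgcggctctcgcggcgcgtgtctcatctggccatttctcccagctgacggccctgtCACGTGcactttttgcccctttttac

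More than 1 in 2 autophagy genes carried a thresholded promoter summit. There were 17 of 29 (58.6%), against a background of 20.6% of all protein-coding genes (4121 of 19973). They carried 20 promoter summits, and 3 of the 17, lgg-1, lgg-2 and epg-6, had more than 1, which 1.88% of all genes had. Gene-body summits were found in 3 members, epg-9, atg-2 and epg-5 (10.3%, background 4.38%), each of which also had a promoter summit. The remaining 12 members had neither. By step of the pathway, promoter summits were present at 3 of 4 initiation genes, 1 of 3 nucleation genes, 5 of 6 membrane supply genes, 6 of 11 conjugation genes, 0 of 3 cargo genes and 2 of 2 maturation genes. These counts are descriptions with no test, and the steps hold too few genes to be set against each other.

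**Figure D1:**
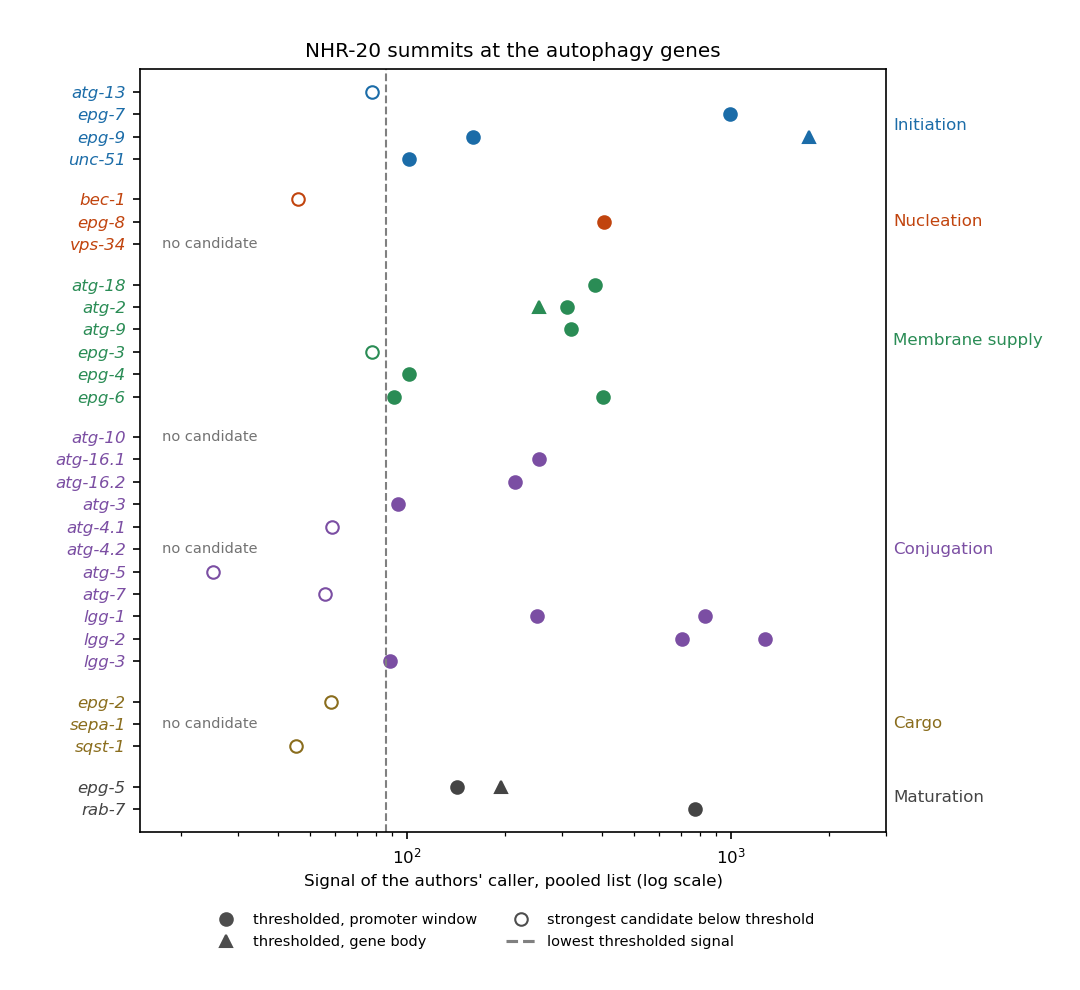
Signal of summits at the 29 autophagy genes in the pooled list, on a log axis, grouped by step. Filled circles are thresholded promoter summits, triangles gene-body summits, open circles the strongest candidate of a member without a thresholded promoter summit, and the dashed line the lowest thresholded signal (85.96). The epg-9 gene-body summit (1745) and lgg-2 (1271) stand furthest to the right, and no cargo gene lies beyond the line.

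Initiation genes held the strongest summit of the whole set. epg-9 encodes the homolog of ATG101, a stabilising subunit of the initiation kinase complex (WBGene00022078, chromosome IV, 2601141 to 2607464, plus strand). Its intronic summit (region 2602002 to 2602391) had a signal of 1745 and ranked 16 in the pooled list. In replicate 1 the signal was 1145 at rank 13, and in replicate 2 it was 607.3 at rank 23, so both replicates placed it among their strongest regions. The summit lay 1030 bp downstream of the first annotated start of epg-9 and 1073 bp upstream of its second, just outside the promoter window of that second start. A weaker summit of signal 159.5, at pooled rank 3440, lay 988 bp upstream of the third start and was therefore counted as a promoter summit. A further summit of signal 415.4 lay 1305 bp upstream of the whole gene, outside every window.

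epg-7 had the strongest promoter summit of the initiation genes. It encodes a scaffold related to FIP200 and ATG11 that acts in the breakdown of protein aggregates (WBGene00020334, chromosome X, 7334714 to 7340268, plus strand). The summit lay 164 bp upstream of its only start (region 7334359 to 7334710), with a pooled signal of 991.6 at rank 103. The replicates gave 623.4 at rank 101 in replicate 1 and 377.9 at rank 116 in replicate 2, nearly the same place in each list. unc-51, the ATG1 and ULK1 kinase homolog that gives the complex its activity, had only a weak promoter summit. Its signal was 101.4 at pooled rank 5455, 225 bp upstream of the start (chromosome V, region 20004512 to 20004907), and it ranked 5895 in replicate 1 and 7348 in replicate 2. A stronger summit of signal 289.3 lay 1424 bp upstream of unc-51 (region 20005843 to 20005982), beyond the window and with no other gene start nearer. atg-13, the ATG13 homolog that links the kinase to the rest of the complex, stayed just below the threshold. Its strongest candidate, 191 bp upstream, had a signal of 78.09 at pooled rank 6934. The strongest region in its window, not matched to that candidate by position, ranked 8235 in replicate 1 and 4323 in replicate 2.

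The nucleation complex was marked at 1 subunit gene. epg-8, the homolog of ATG14 that directs the lipid kinase to autophagy, had a summit 240 bp upstream of its outermost start (chromosome I, region 9934416 to 9934637). Its signal was 405.2 at pooled rank 916, with 239.7 at rank 1068 in replicate 1 and 152.7 at rank 895 in replicate 2. bec-1, the Beclin 1 homolog, had a thresholded summit of signal 167 that lay 1134 bp upstream of its start, just outside the window (chromosome IV, region 5665361 to 5665756). It ranked 3588 in replicate 1 and 4649 in replicate 2, and no other gene start was nearer. Inside the bec-1 window the strongest candidate had a signal of 45.86 at pooled rank 10982. vps-34, the lipid kinase itself, had no pooled candidate in its windows, and its nearest thresholded summit was 9707 bp away at let-391.

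Among the membrane supply genes, signals between 311 and 402 were common. epg-6, a WIPI family binder of phosphatidylinositol 3-phosphate, had a summit of signal 402 at pooled rank 935, 246 bp upstream of an inner start and 286 bp downstream of its first (chromosome III, region 10599800 to 10600014). Its replicate ranks were 940 and 1096. The related WIPI gene atg-18 had a summit of signal 380.5 at pooled rank 1039, 225 bp upstream of the start (chromosome V, region 8631421 to 8631654), and ranked 1140 and 963 in replicates 1 and 2. Both WIPI genes thus had summits of similar signal at a similar distance from a start. atg-9 encodes a scramblase of the vesicles that seed the autophagosome. Its summit (chromosome V, region 349126 to 349328) had a signal of 320.9, 154 bp upstream of the outermost start, at rank 1096 in replicate 1 and 2272 in replicate 2. atg-2, which encodes the lipid transfer protein that works with ATG-18, held a promoter summit of signal 311 in an intron, 272 bp upstream of the inner start (chromosome X, region 6808710 to 6808973). The noncoding RNA gene M03A8.6 lies at or within 200 bp of this summit. A gene-body summit of signal 254.6 lay 557 bp downstream of the outer start, and 2 more of signals 237.5 and 135.5 lay 1727 and 2024 bp upstream of that start.

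Both homologs of membrane proteins of the endoplasmic reticulum in this step had low signals in their own windows. epg-4, the EI24 homolog, had a summit of signal 101.5 at pooled rank 5448, 145 bp upstream. It ranked 6917 in replicate 1 and 4024 in replicate 2. A summit of signal 632 at pooled rank 369 lay 2306 bp upstream of epg-4, in the windows of rps-14, rpl-36 and ndab-2, and ndab-2 ends 248 bp before epg-4 on the same strand. epg-3, the VMP1 homolog, had a candidate of signal 78.03 at pooled rank 6943, upstream of its start and close behind that of atg-13. The members just inside the threshold were lgg-3 (signal 88.71) and atg-3 (93.41), with the second epg-6 summit (91.02) between them, and those just outside were atg-13 (78.09) and epg-3 (78.03).

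In the conjugation step both ATG8 genes had strong summits, and 5 of 11 members had no thresholded promoter summit. lgg-2, an ATG8 homolog (WBGene00002981, chromosome IV, 10934196 to 10935903, minus strand), had the strongest promoter summit of all members. It lay 296 bp upstream of the first start (region 10935994 to 10936438) with a pooled signal of 1271 at rank 43. The replicate signals were 773.4 at rank 45 and 527.2 at rank 39 in replicates 1 and 2, so its place hardly differed between them. A second summit of signal 706.4 lay in an intron, 386 bp downstream of the first start and 478 bp upstream of the second, with signals of 475.1 in replicate 1 and 225.9 in replicate 2. lgg-1, the other ATG8 homolog and the common marker of autophagosomes in the worm (WBGene00002980, chromosome II, 6346960 to 6347719, minus strand), also had 2 summits. The stronger, with a signal of 830 at pooled rank 185, lay 888 bp upstream of its only start (region 6348345 to 6348784). In replicate 1 it had a signal of 513 at rank 191, and in replicate 2 317.5 at rank 203. The weaker one, of signal 250.8, lay 202 bp upstream and ranked 1435 in replicate 1 and 3437 in replicate 2. Neither ATG8 gene shared the windows holding these summits with another protein-coding gene.

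lgg-3, the ATG12 homolog, differed from the ATG8 genes in strength. Its summit of signal 88.71, the lowest of any member, ranked 7947 in replicate 1 and 4526 in replicate 2. It lay 548 bp upstream of lgg-3 but only 6 bp inside rgs-5, a gene on the other strand (chromosome III, region 5698363 to 5698758). The ATG16 homologs, which anchor the conjugate to membrane, had 1 summit each. atg-16.1 had a signal of 255.6 at pooled rank 1901, 136 bp upstream (chromosome X, region 4462506 to 4462699), and ranks of 1878 and 2097 in replicates 1 and 2. atg-16.2 had a signal of 215.9 at pooled rank 2410, 186 bp upstream (chromosome II, region 6453485 to 6453663), and ranks of 2152 and 2936. Both paralogs thus had a summit above the list's median signal of 169.5.

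Of the enzymes of conjugation, only atg-3, the E2-like enzyme for ATG8, was in the thresholded list by the promoter rule. Its summit of signal 93.41 was 769 bp upstream of atg-3 but 9 bp upstream of Y55F3AM.9 on the other strand (chromosome IV, region 1009545 to 1009940), and ranked 4943 in replicate 1 and 7847 in replicate 2. A stronger summit of signal 374.3 at pooled rank 1063 lay outside the windows of atg-3. It was 464 bp downstream of the inner start and past the end of the gene. atg-7, the E1-like enzyme, had a candidate of signal 55.56 at pooled rank 9323. The strongest region in its window, not matched to that candidate by position, ranked 11411 in replicate 1 and 4454 in replicate 2. atg-7 starts 31 bp after the end of let-70, a ubiquitin-conjugating enzyme gene on the same strand, whose promoter window held a summit of signal 733.2 at pooled rank 270, 2022 bp upstream of atg-7. That summit was also in the window of klc-1. The protease gene atg-4.1 had a candidate of signal 58.45, with none in its window in replicate 1, and atg-5 had one of 25.05 at pooled rank 20294. atg-10, the E2-like enzyme for ATG12, and the second protease gene atg-4.2 had no pooled candidate in the window.

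None of the 3 cargo genes had a thresholded promoter summit, and 3 genes are too few to set against the background of 20.6%. The receptor gene sqst-1, a p62 homolog, had a candidate of signal 45.27 in its windows at pooled rank 11117. The strongest region in these windows, not matched to that candidate by position, ranked 10222 in replicate 1 and 29203 in replicate 2. A strong summit of signal 571.7 at pooled rank 456 lay 1638 bp upstream of sqst-1 (chromosome IV, region 12032513 to 12032813), with ranks of 454 and 511 in replicates 1 and 2. Its nearest start was that of mrpl-51, 1320 bp away, so it lay in no promoter window. epg-2, a coiled-coil scaffold for P granule cargo, had a candidate of signal 58 at pooled rank 8979. sepa-1, the receptor for P granule proteins, had none, and a summit of signal 351.4 lay 2910 bp downstream of its start, past the end of the gene.

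Both maturation genes carried summits that other genes could share. rab-7, a small GTPase of late endosomes and lysosomes (WBGene00004271, chromosome II, 11965523 to 11966931, minus strand), had a summit of signal 774.3 at pooled rank 226, 795 bp upstream (region 11967567 to 11967859). Replicate 1 gave 521.9 at rank 182 and replicate 2 gave 255.1 at rank 334. The same summit lay 182 bp upstream of W03C9.5, a same-strand gene whose annotated end overlaps the start of rab-7, and 911 bp upstream of mex-1 on the other strand. It therefore cannot be assigned to rab-7 rather than to W03C9.5. epg-5, a tether for fusion with lysosomes, had a promoter summit of signal 142.2 at pooled rank 3871, 259 bp upstream (chromosome II, region 6609426 to 6609821), which ranked 3549 in replicate 1 and 4681 in replicate 2. Its intronic summit of signal 195.4 lay 8195 bp downstream of the start and 46 bp upstream of vps-33.2, a gene on the other strand inside the span of epg-5.

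**Figure D2:**
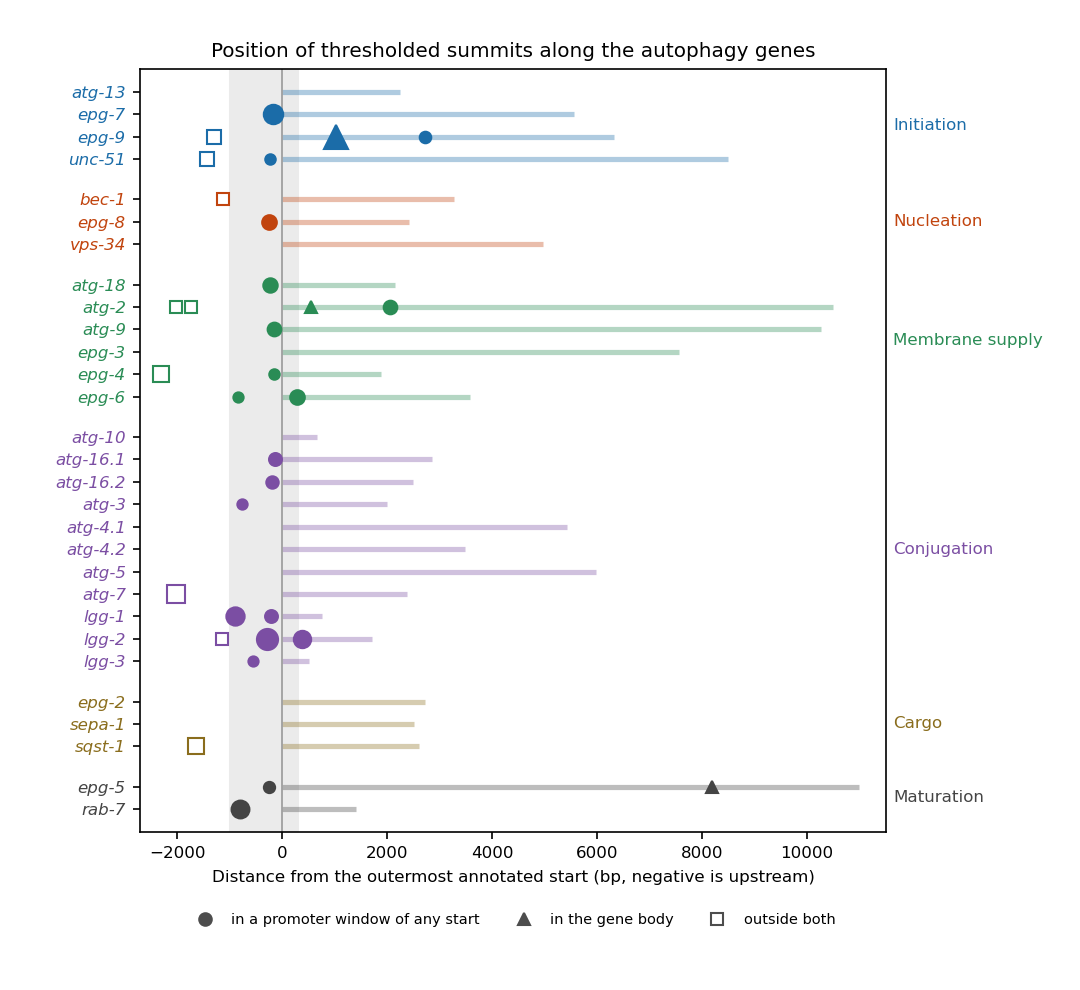
Thresholded summits along each autophagy gene, by distance in bp from the outermost annotated start, with the gene drawn as a bar. The shaded band is the promoter window of that start, marker size grows with signal, and open squares are summits in neither a window nor the gene, shown to 2500 bp upstream. Large markers lie at epg-9, lgg-2, epg-7, lgg-1 and rab-7, and open squares are present at 8 genes.

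The position of the summits was similar to that of promoter summits in general. All 20 member promoter summits lay upstream of a start whose window held them, against 93.4% of the 4554 pairs of summit and gene over all genes. Within 300 bp upstream lay 13 of 20 (65%, against 53.6%), and the median distance was 252.5 bp, against 238.0 bp. Windows shared with another protein-coding gene held 3 of 20 summits, those of atg-3, lgg-3 and rab-7 (15%, against 24.7% of the 3609 promoter summits of all genes). The 3 members with gene-body summits were long genes, of 6324 bp (epg-9), 10504 bp (atg-2) and 11022 bp (epg-5). The median length was 2728 bp over all members, 2027 bp over all protein-coding genes and 5888 bp over all genes with a gene-body summit.

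Members also differed in their neighbourhood. An upstream protein-coding gene on the same strand ended within 500 bp of the outermost start, or overlapped it, at 8 members, and 4 of these, epg-8, atg-18, epg-4 and rab-7, had a promoter summit (background 14.5% of all genes with such a neighbour). The other 4 were vps-34, atg-10, atg-4.2 and atg-7. Of the remaining 21 members 13 had a promoter summit (background 22.1% of all genes without such a neighbour). In worms, closely spaced genes on 1 strand are often transcribed together from an upstream promoter.

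Each of the 23 member summits had a counterpart no more than 200 bp away in the candidate list of either replicate. Among the 6423 strongest regions of both replicates were 15 of the 20 promoter summits (75%, against 82.7% of all promoter summits) and 3 of 3 gene-body summits. The summits at unc-51 and atg-3 and the second one at epg-6 fell short in replicate 2, and those at epg-4 and lgg-3 fell short in replicate 1. Each of these 5 had a pooled signal of 101.5 or less, close to the lowest of the list. In the replicate where they fell short, their ranks ran from 6917 (epg-4) to 7947 (lgg-3). The ranks of the weaker lgg-1 summit (1435 in replicate 1 and 3437 in replicate 2) and of the atg-9 summit (1096 and 2272) differed more in proportion than those of unc-51 (5895 and 7348). Called from the strongest regions of replicate 1 alone, 15 of 29 members had a promoter summit (51.7%, background 20.7%), and from replicate 2 alone 17 of 29 (58.6%, background 20.3%), of which 13 were found in both. Without replicate 1, atg-13 and atg-7 entered and unc-51 and atg-3 dropped out, and without replicate 2, epg-4 and lgg-3 dropped out. The replicates made the pooled list and share a control, so this is not an independent measure of reproducibility.

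**Figure D3:**
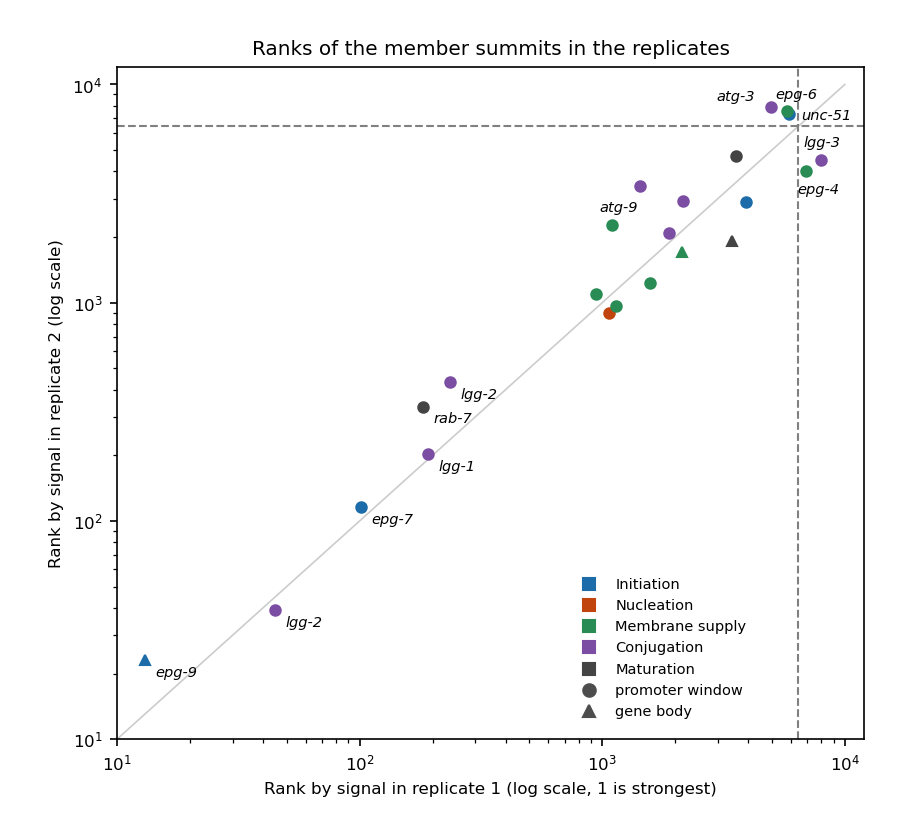
Rank by signal of the 23 thresholded member summits in replicate 1 (horizontal) and replicate 2 (vertical), both on log axes, coloured by step, with circles for promoter and triangles for gene-body summits. Dashed lines mark rank 6423, and the grey line marks equal ranks. The stronger lgg-2 and lgg-1 summits and the epg-7 summit lie close to the line of equal ranks, the atg-9 summit lies further from it, and 5 summits lie beyond a dashed line.

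With all pooled candidates counted, 25 of 29 members (86.2%) had a region in a promoter window, against a background of 47.2%. The 4 without one were vps-34, atg-10, atg-4.2 and sepa-1. Over all 29 members the median of the strongest candidate signal in the window was 101.4, with members lacking a candidate set to 0, and over all protein-coding genes it was 0, since fewer than 1 in 2 had a candidate. The 8 members with candidates below the threshold ranged from 25.05 (atg-5) to 78.09 (atg-13).

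Another 31 genes that act with the pathway were taken as a second list, including regulators, fusion factors and mitophagy genes. Of these 13 had a thresholded promoter summit (41.9%, background 20.6%), and no call was tested. The strongest was at allo-1, a receptor for paternal organelles (signal 407.2, pooled rank 910, 210 bp upstream). ikke-1, the kinase that acts on ALLO-1, had one of signal 386.6 at pooled rank 999, which ranked 678 in replicate 1 and 2470 in replicate 2. rab-5, a small GTPase of early endosomes, had a signal of 395.1 with its window shared with nmat-2. hlh-30, the homolog of TFEB and a transcriptional activator of autophagy and lysosome genes, carried 7 thresholded summits. It is a long gene (chromosome IV, 4014793 to 4034951), and the share of all genes with as many summits was not computed. At hlh-30, 3 lay in promoter windows, with signals of 353.1, 206.8 and 96.44, and 4 in introns outside them, the strongest of signal 404.4. The weakest of these 4, of signal 112.5, ranked 2872 in replicate 1 and 20063 in replicate 2. mxl-3, which opposes HLH-30 at lipase genes, had a promoter summit of signal 236.2. Singled out after its value was seen, aak-2, the catalytic subunit of AMPK, had an intronic gene-body summit of signal 959.7 at pooled rank 119, which ranked 98 in replicate 1 and 176 in replicate 2, beside a promoter summit of 183.3. The promoter signals of the other 7 called genes ran from 105.5 at dct-1, a mitophagy receptor, to 170.9 at rab-1, a small GTPase, and the remaining 18 of the 31 genes had no thresholded promoter summit.

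**Figure D4:**
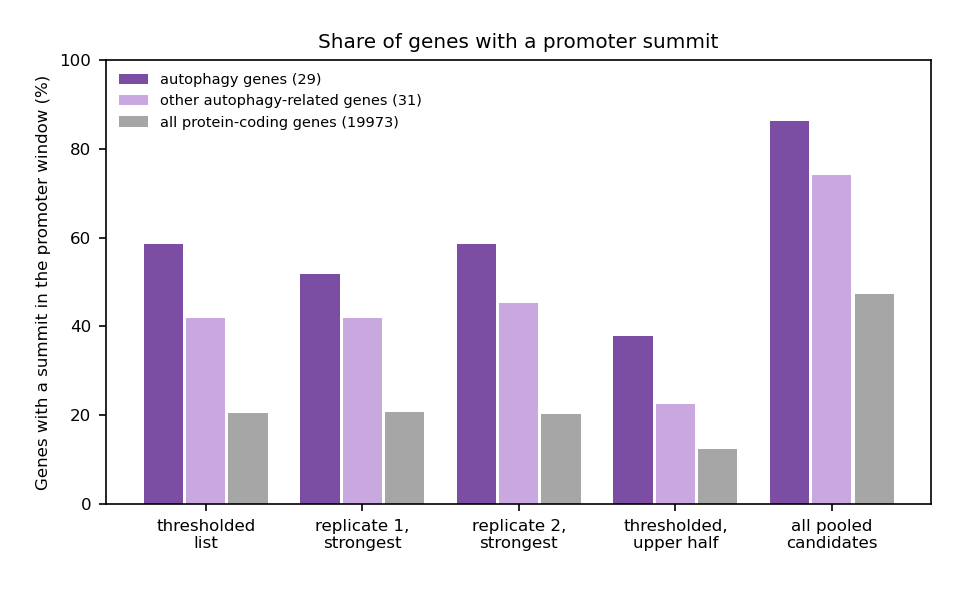
Percentage of genes with a summit in the promoter window for the 29 autophagy genes, the 31 other autophagy-related genes and all 19973 protein-coding genes, by list of regions. Bars start at 0 and have no error bars, since each comes from 1 list. The autophagy genes stand at 58.6% in the thresholded list, against 20.6% of all genes, and all 3 bars rise when every pooled candidate is counted.

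Letters around the summits were read as a description. The E-box CACGTG, the letters bound by HLH-30 and other basic helix-loop-helix factors, lay within 100 bp of 6 of the 23 member summits (26.1%), against 11.6% of all 6423 thresholded summits. The 6 were the gene-body summit of epg-9 and the promoter summits of epg-7, atg-9, atg-3, epg-5 and rab-7, and in the sequences shown above it is the capitals of rab-7 and part of the capitals of epg-9 and epg-7. The related letters TCACNTGA were chosen after the sequences had been read. They occurred at 6 of 23 (26.1%) against 6.52% of all summits. The form was TCACGTGA at epg-9, epg-7 and atg-3, each at the same site as the E-box counted above. It was TCACATGA at the stronger summits of both lgg-2 and lgg-1, and the remaining match was at atg-2. Most matches, those at epg-9, epg-7, lgg-2 and lgg-1, lie in the windows read before the choice. The share at member summits therefore cannot be fairly set against that of all summits. The nuclear receptor core site AGGTCA was present at 3 summits (13%, against 8.41%), at epg-4, epg-6 and the weaker lgg-2 summit, and AGTTCA at 4 (17.4%, against 9.75%). The repeat GAGAGA occurred at 10 summits (43.5%, against 39.6%). The letters TGATAA, which zinc-finger factors of the ELT family bind, occurred at 3 (13%, against 23.4%). The forkhead letters GTAAACA occurred at 0 (against 5.04% of all summits). All motifs were searched on both strands in the 201 bases around each summit. The median GC content of these windows was 44.8% at member summits and 41.3% at all thresholded summits, and its part in the motif shares was not tested.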

How the data were processed

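The authors deposited regions in narrowPeak form on ce10 and ce11, per the notes deposited with each sample, with a signal value and a −log10 q-value per region. Every region of the thresholded list shares the highest −log10 q-value (4.18), so regions were ranked by the signal deposited by the authors. Each ce11 list derives from alignments of 1 replicate or of both pooled, against a control alignment. Names of the aligner and caller, and the cutoff applied, were not given in the sources used here. Read depth is unknown, and no count or interval was derived.

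The ce11 lists were used with Ensembl release 115 gene models and symbols from RefSeq, both on WBcel235, and all region ends fell within the chromosome lengths. The ce10 lists were not used. Assignment of summits, ranks, replicate matches (200 bp) and letter searches were computed in Python 3.11.15 and plotted with matplotlib 3.10.9. The assignment code was tested on simulated data. The members, lists and rules were chosen with earlier results of these data known, so no test was made. All members are named. Genes outside them are named where they share a window with a member's summit, or are among the 5 strongest of the second list. Beyond that rule, aak-2, dct-1, rab-1, M03A8.6 and the neighbours of uncalled members, of rab-5 and of more distant summits were named after their values were seen. Replicates were separate biological samples of the single transgenic line.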

Additional observations from a re-analysis of the deposited data

How the results depend on the processing

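The count of 17 members with a promoter summit (58.6%, background 20.6%) was 13 with a window of 500 bp upstream to 100 bp downstream (background 16.3%), 19 with 2000 to 500 bp (background 26.3%) and 25 with all pooled candidates (background 47.2%). It was 15 with the outermost start alone (background 19.2%), 18 with region overlap (21.8%) and 15 to 17 when a replicate was left out (20.7% and 20.3%). With each summit given to the gene of its nearest start in place of a window, it was 16 (22.9%). There atg-3, lgg-3 and rab-7 were lost and bec-1 and sepa-1 gained. The gained summits lay outside the promoter windows, 1134 bp upstream of bec-1 and 2910 bp downstream of the start of sepa-1, past its end. With signals at or above the list median it was 11 (37.9%, background 12.3%). For the other autophagy-related genes the count of 13 was 7 with signals at or above the median (22.6%, background 12.3%), 23 with all pooled candidates (74.2%, background 47.2%) and 13 to 14 when a replicate was left out. Gene-body summits, in 3 members, were in 5 when a gene's own windows were included (background 6.87%), in 2 when every gene's windows were left out (3.78%), in 15 with all pooled candidates (28.1%) and in 3 to 4 when a replicate was left out. The match of 15 promoter summits in both replicates was 15 at 100 and at 500 bp, and 20 with all candidate regions. With the wider window bec-1 and sqst-1 were gained. In that window the strongest signal of epg-9 was 1745 in place of 159.5, and that of unc-51 was 289.3 in place of 101.4. That of atg-3 was 374.3 in place of 93.41, from a summit past the end of the gene, 464 bp downstream of its inner start. With the narrower window that of lgg-1 was 250.8 in place of 830. These changes follow from which summits the window holds. Unknown depth limits what can be said of absent regions.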

Other observations

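By chromosome, 3 of 3 members on V and 3 of 3 on X had a promoter summit, with 16.9% and 22.4% of all genes there. It was 4 of 5 on II (20.2% of all genes there), 3 of 5 on III (25.6%), 3 of 7 on IV (18.3%) and 1 of 6 on I (24%). The members are too few for these counts to be compared.

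Regions of the commonest width had lower signals than the rest. A width of exactly 396 bp was shared by 3427 thresholded regions (53.4%), with a median signal of 119.5, against 301.2 for the others. Of the 23 member summits 7 lay in such regions, all of signal 159.5 or less, and the others had signals of 195.4 or more. The regions of those others were narrower, as at epg-8 (222 bp, signal 405.2), or wider, as at lgg-2 (445 bp, signal 1271).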
